A study of Mus musculus with 2 samples.

Results

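Mir126a, Mir126b, Mir143 and Mir145a are the microRNA (miRNA) genes best known from blood vessels. They were taken by their GENCODE M21 names from the count tables of microRNA sequencing of mouse hippocampus, and all 4 were found among the 2202 miRNA genes in the tables. The tissue, labelled layer of hippocampus, was male, 25 days old and of the mouse strain B6CASTF1/J, a first-generation hybrid of C57BL/6J and CAST/EiJ. How many animals gave it is not settled by the labels. The 2 libraries form 1 group, biological replicates 1 and 2, with separate biosamples but a shared donor entry, and the labels give no treatment, engineered allele or sorted cell type. The design therefore allows the 4 levels to be ranked and the libraries to be set side by side, with a spread that may be partly technical. A level here is in counts per 1000000 gene-assigned counts (CPM), from 5183641 such counts in replicate 1 and 5871233 in replicate 2. Reads aligned to several places, 43.6% and 43.2% of reads, were held apart from the gene counts.

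A miRNA gene is transcribed as a hairpin precursor whose arms are cut into mature miRNAs, and bases 2 to 8 of a mature miRNA, the seed, guide it to messenger RNAs. miR-126 is made in endothelial cells, where it supports vascular integrity and growth factor signalling by lowering inhibitors such as Spred1. miR-143 and miR-145 are made together in the contractile cells of the vessel wall, smooth muscle cells and pericytes, where they favour the contractile over the proliferative state. In bulk tissue such as this, fewer cells of a type and less RNA per cell cannot be told apart.

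The sequences of the Mir126 locus are shown because Mir126a and Mir126b are models of the same place on opposite strands, and only the strand of a read tells them apart. The sequences are from RefSeq (GRCm38.p6, the assembly of mm10), and 2 of the 4 genes matched the sequence table used here. In the hairpins, written 5′ to 3′, capitals mark the mature miRNAs listed for each gene.
Mir126a, chr2:26591357-26591429, plus strand: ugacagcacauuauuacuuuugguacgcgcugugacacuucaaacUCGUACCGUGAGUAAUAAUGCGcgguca
Mir126b, chr2:26591363-26591420, minus strand: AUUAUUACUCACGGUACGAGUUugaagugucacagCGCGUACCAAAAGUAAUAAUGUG
In the mature sequences, capitals mark the seed.
mmu-miR-126a-3p, chr2:26591402-26591423, plus strand: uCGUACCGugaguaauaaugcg
mmu-miR-126b-5p, chr2:26591399-26591420, minus strand: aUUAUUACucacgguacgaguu
mmu-miR-126b-3p, chr2:26591363-26591385, minus strand: cGCGUACCaaaaguaauaaugug
The 58-base hairpin of Mir126b is the reverse complement of the 58 bases of the 73-base Mir126a hairpin that start at its base 7. The positions of miR-126a-3p and miR-126b-5p share 19 bases. None of the 3 seeds was shared with a mature miRNA of another gene among the 1738 mature entries of the table. miR-126a-5p, miR-143 and miR-145a are named only.

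Where did the genes lie? Mir126a (ENSMUSG00000065540.1) lay on chromosome 2 inside Egfl7, the gene of a protein that endothelial cells secrete, which spans 26580014 to 26593120 on the same strand. Of the 9 Egfl7 transcripts that span it, 8 had Mir126a in an intron and 1 in an exon, and 4 of the 8 had it in intron 7. It was also intronic in Gm20532, a protein-coding model on the same strand. Mir126b (ENSMUSG00000105799.1) lay antisense to both. The protein-coding gene Agpat2 lay nearby on the minus strand, 1627 bases from Mir126a. Mir143 (ENSMUSG00000065445.3) lay on the minus strand of chromosome 18 from 61649196 to 61649258, and Mir145a (ENSMUSG00000065592.2) followed downstream from 61647825 to 61647894, with 1301 bases between them. Neither overlapped another annotated gene. The long noncoding gene Carmn, known from cardiac and smooth muscle cells, ended 366 bases upstream of Mir143 on the same strand, and Bvht, a long noncoding gene known from cardiac differentiation, lay on the other strand 352 bases from Mir145a.

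Endothelial Mir126a was the highest of the 4 genes, with 27471 counts in replicate 1 and 34343 in replicate 2. Its level was 5300 CPM (exact 95% interval 5237 to 5362) and 5849 CPM (5788 to 5911), a mean of 5574 ± 389 CPM (SD, n = 2). It ranked 35 by mean level among the 2202 genes. Vessel-wall Mir143 had 18317 and 16447 counts, or 3534 CPM (3483 to 3585) and 2801 CPM (2759 to 2844), and ranked 50 at 3167 ± 518 CPM. Its cluster partner Mir145a had 2487 and 842 counts, or 480 CPM (461 to 499) and 143 CPM (134 to 153), and ranked 153 at 312 ± 238 CPM. Mir126b had no count in either library, which allows a level of up to 0.579 CPM in replicate 1 and 0.511 CPM in replicate 2. The intervals and these limits are exact Clopper-Pearson intervals and 3 counts of the total, and cover counting error only. For scale, 10 or more counts were present in both libraries for 445 genes, and their median level was 51.2 CPM. The 3 detected genes all stood above that median. The ranks and the median are of assigned counts, in which genes with copies elsewhere may stand too low.

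**Figure D1:**
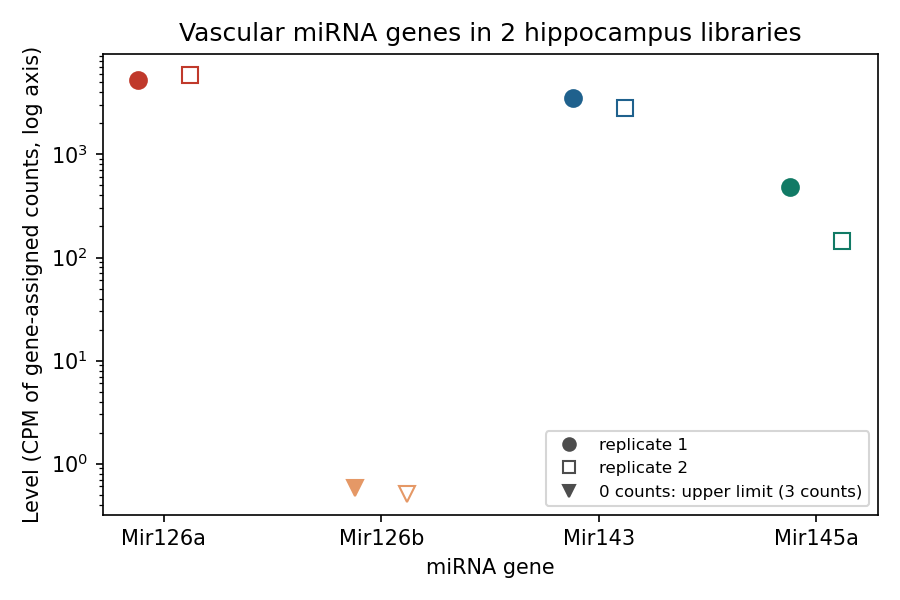
Level of each gene (horizontal axis) in CPM on a log axis, with filled symbols for replicate 1 and open symbols for replicate 2. Bars of exact 95% counting intervals are smaller than the symbols. The lowest symbol of Mir126a and Mir143 is at 2801 CPM, Mir145a is at 480 and 143 CPM, and Mir126b is drawn at the limit that a count of 0 allows.

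The order Mir126a, Mir143, Mir145a held in both libraries, and the ranges of neighbours in that order did not overlap. Mir126a exceeded Mir143 by 1.50-fold in replicate 1 (interval 1.47 to 1.53, exact at 95%) and by 2.09-fold in replicate 2 (2.05 to 2.13), with a mean gap of 2407 ± 907 CPM (SD, n = 2). Mir143 exceeded Mir145a by 7.37-fold (7.06 to 7.68) and 19.5-fold (18.2 to 20.96), with a mean gap of 2856 ± 280 CPM. An exact two-sided permutation test over 2 libraries gave p = 0.5 for each gap, the smallest p that this design allows. A miRNA read covers a mature arm, so levels were not divided by hairpin length. Per base of the annotated hairpin the order was the same, at 76.4 ± 5.33 CPM for Mir126a, 50.3 ± 8.22 CPM for Mir143 and 4.45 ± 3.40 CPM for Mir145a.

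The 4 genes together took 0.931% of gene-assigned counts in replicate 1 and 0.879% in replicate 2. Within that total the makeup differed. Mir126a held 56.9% of it in replicate 1 and 66.5% in replicate 2, Mir143 held 37.9% and 31.9%, and Mir145a held 5.15% and 1.63%. The share of the endothelial gene was thus higher in replicate 2, and those of both vessel-wall genes were higher in replicate 1.

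All gene-assigned reads of the Mir126 locus were assigned to the Mir126a strand. Mir126b held 0 of the 27471 counts of the pair in replicate 1 and 0 of 34343 in replicate 2, which allows a share of up to 0.0109% and 0.00874%. The count column for the opposite strand gave Mir126b 27470 and 34343 counts, which are the reads of Mir126a seen from the other side. In the column that ignores strand, Mir126a kept 1 count in replicate 1 and 0 in replicate 2. The other reads there fell among the reads called ambiguous, of which they made up 9.08% in replicate 1 and 8.86% in replicate 2. A table read without strand would therefore list this gene as nearly absent.

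Other miRNA genes modelled on both strands of 1 place looked alike. The annotation holds 32 such pairs, and 25 of them had at least 100 counts in all. The Mir126 pair was the third by counts, rank 3, after Mirlet7e with Gm25927 (276689 counts in both libraries) and Mir191 with Gm24083 (118862 counts). In 20 of the 25 pairs, the Mir126 pair among them, the lower gene had no count, and in 23 it held under 1% of the pair. The 2 exceptions, named after their values were seen, were Mir24-1 with Mir3074-1 (10.9% on the lower gene) and Mir486 with Mir3107 (10.4%). These are shares of assigned counts. Reads of the higher gene may stand among those aligned to several places, so they do not give the use of each strand. Reads on 1 strand only were thus usual for such pairs and not particular to Mir126.

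**Figure D2:**
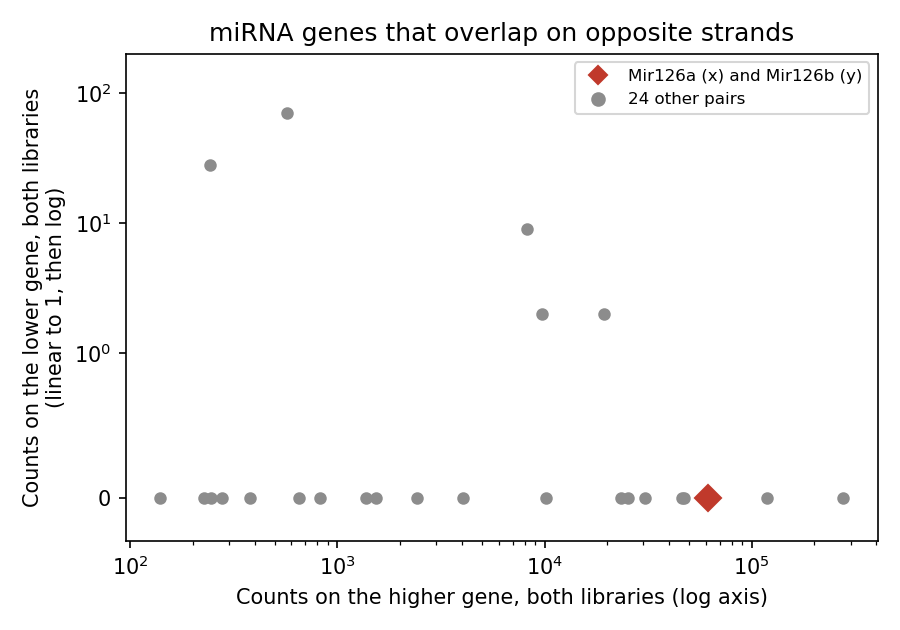
Counts of both libraries on the higher gene (horizontal log axis) and on the lower gene (vertical axis, linear to 1 and log above) of the 25 overlapping opposite-strand pairs with at least 100 counts. The Mir126 pair (diamond) lies at 0 on the vertical axis, with 19 of the 24 other pairs.

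How did the genes differ between the libraries? Mir145a differed most. It was 3.35-fold higher in replicate 1 (exact 95% interval 3.09 to 3.62), which is -1.74 as the log2 ratio (replicate 2 over replicate 1), at an adjusted p of 6.9e-233 in an exact binomial test of its counts against the library totals with Benjamini-Hochberg adjustment. Mir143 was 1.26-fold higher in replicate 1 (1.24 to 1.29), a log2 ratio of -0.33 with an adjusted p of 6.4e-103 in the same exact test. Mir126a was 1.10-fold higher in replicate 2 (1.09 to 1.12), a log2 ratio of 0.14 with an adjusted p of 1.2e-33 in the same exact test. The test sets 1 library against the other and treats each read as its own molecule. It called 59.7% of the 472 genes whose mean count reached 10, so a call by itself sets no gene apart. Of those genes 39.4% were called higher in replicate 2 and 20.3% higher in replicate 1.

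The sizes separate the 3 genes better than the calls. Among 291 genes whose mean count reached 100, the median absolute log2 ratio was 0.34. Over the 472 genes tested, edgeR put the common biological coefficient of variation at 0.320. Mir126a, with an SD of 6.97% of its mean, was exceeded in absolute log2 ratio by 228 of the 291 genes, and Mir143, with 16.3%, by 150. Mir145a, with 76.3%, was exceeded by 9. Of the 291 genes, 3 had a lower log2 ratio than Mir145a, and all 3 were named after their values were seen. They were Mir26a-1 (-2.77), which shares 25 bases with a miRNA gene elsewhere, Mir185 (-2.55) and Mir99b (-2.14). The direction of Mir126a depended on the scaling. The median log2 ratio of the genes tested was 0.16, and scaling with TMM (trimmed mean of M-values) shifts every log2 ratio by -0.17. Mir126a then stood at -0.029 (adjusted p = 0.025 in the exact binomial test), Mir143 at -0.51 and Mir145a at -1.91. Relative to the median gene, Mir126a thus differed little in size and both vessel-wall genes were lower in replicate 2.

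**Figure D3:**
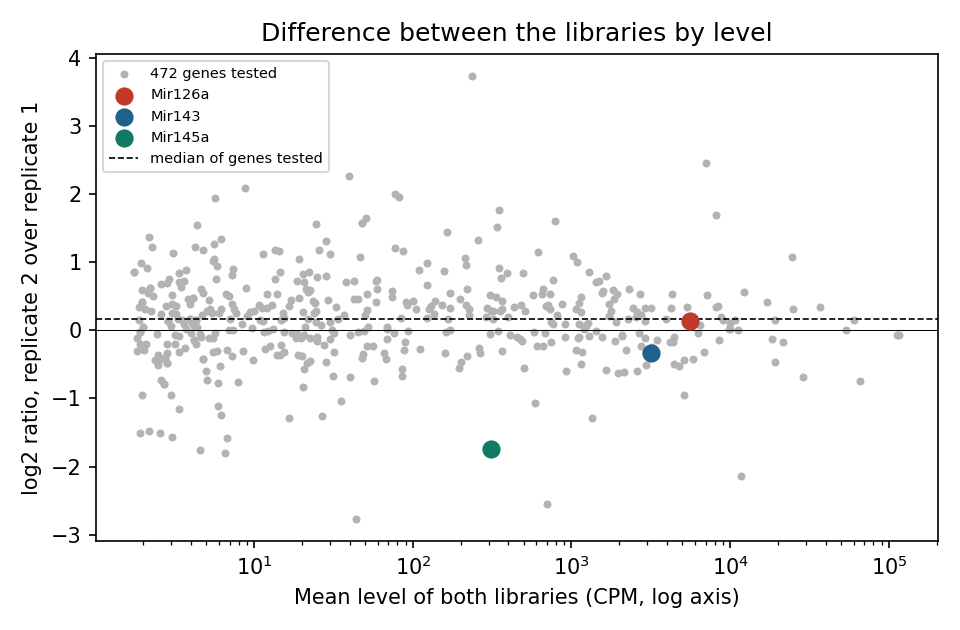
Log2 ratio of replicate 2 over replicate 1 against the mean level in CPM (log axis) for the 472 genes tested, the dashed line marking their median of 0.16. Mir126a (0.14) lies at the median, Mir143 (-0.33) below it, and Mir145a (-1.74) at the lower edge of the genes of its level.

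Mir143 and Mir145a lie 1301 bases apart on 1 strand, so their ratio can be read within each library without any scaling. Mir145a made up 12.0% of the counts of the 2 genes in replicate 1 (11.5 to 12.4, exact interval at 95%) and 4.87% in replicate 2 (4.55 to 5.20). The ratio of Mir143 to Mir145a was 2.65 times larger in replicate 2 (2.44 to 2.88), a shift of 1.40 on the log2 scale, with an adjusted p of 5.7e-137 in Fisher's exact test with Benjamini-Hochberg adjustment over all neighbouring pairs. The pairs were consecutive miRNA genes on 1 strand, at most 10 kb apart, with a mean count of at least 10 each, and 65.2% of the 112 pairs were called. The median absolute shift of the 112 pairs was 0.53, and 10 pairs shifted more than Mir143 with Mir145a. The pairs next above it were Mir351 with Mir503 (1.50) and Mir15b with Mir16-2 (1.51), and those next below were Mir411 with Mir299a (1.37) and Mir380 with Mir299a (1.37), which share a gene. Neighbours on 1 strand thus often kept unequal ratios between these libraries, and the shift of Mir143 with Mir145a was among the larger ones.

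**Figure D4:**
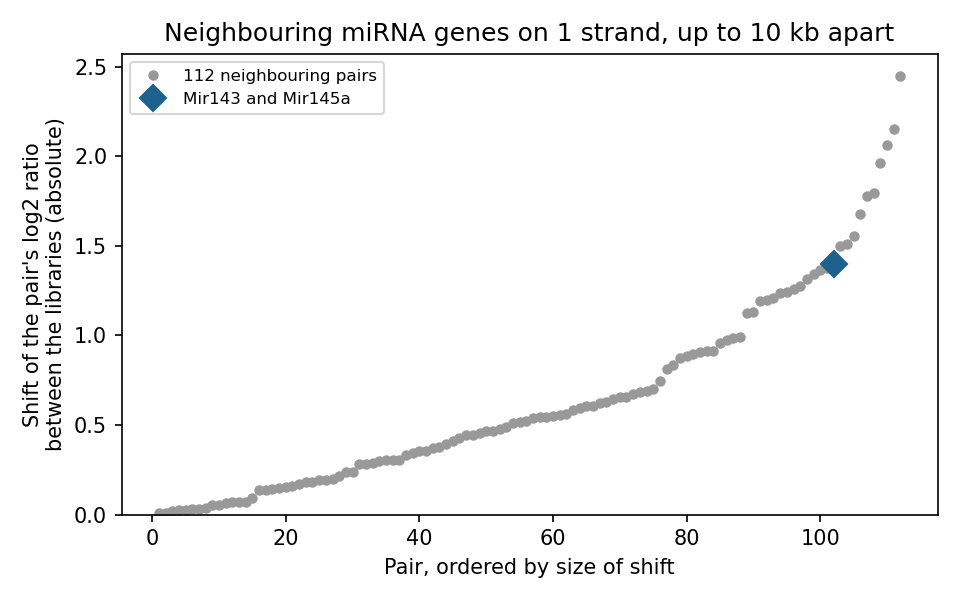
Absolute shift of the log2 ratio of 2 neighbouring miRNA genes between the libraries, for 112 pairs ordered by size. Mir143 with Mir145a (diamond) has a shift of 1.40, which 10 pairs exceed, against a median of 0.53.

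Could reads of the members have been lost to copies elsewhere? On either strand, the longest stretch that Mir126a had in common with a miRNA gene elsewhere was 12 bases, that of Mir126b 12 bases, that of Mir143 11 bases and that of Mir145a 17 bases. All lay under 18 bases, a length that 51.5% of the 2202 genes shared with a miRNA gene elsewhere. Copies outside the annotated miRNA genes were not examined.

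Markers of other cells that a piece of hippocampus can hold are given beside the difference in Mir145a, and their part in it was not tested. Their calls are to be read against the 39.4% of all genes tested that were called higher in replicate 2 and the 20.3% called higher in replicate 1. Calls under TMM are to be read against 141 of the 472 genes tested higher in replicate 2 and 137 in replicate 1. Red blood cell genes summed to 41.9 CPM in replicate 1 and 56.9 CPM in replicate 2, with 2 of 3 members called higher in replicate 2, or 1 of 3 under TMM, and none in replicate 1. Mir486 (21.8 ± 1.92 CPM, SD, n = 2), Mir451a (21.8 ± 6.27 CPM) and Mir144 (5.77 ± 2.43 CPM), all of the erythroid lineage, were low next to Mir126a in assigned counts. Their shared stretches were not examined singly, and the place of Mir486 is also modelled as Mir3107 on the other strand. Reads of theirs may thus stand among those aligned to several places, and these values may be too low. White blood cell and platelet genes summed to 1751 and 1698 CPM, led by lymphocyte Mir150 (1075 ± 153 CPM), inflammation-induced Mir146 (572 ± 145 CPM) and leukocyte Mir142 (35.2 ± 17.7 CPM). Of their 6 members tested, 1 was called higher in replicate 2 and 3 in replicate 1, or 5 in replicate 1 under TMM, and Mir142b was at 0.

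Of the other miRNA genes of mural cells and fibroblasts, 2 of 5 were tested, where 39.4% of all genes tested were called higher in replicate 2 and 20.3% higher in replicate 1. Mir490 had 164 and 161 CPM and did not pass the exact binomial test (adjusted p = 0.78). Under TMM it was called higher in replicate 1, as were 137 of the 472 genes tested. Mir214, known from fibroblasts and the developing mesenchyme, had 12.0 CPM in replicate 1 and 37.3 CPM in replicate 2, and was called higher in replicate 2. Mir199a-2 had 0 and 2 assigned counts and Mir199a-1 none, but they share stretches of 27 and 28 bases with miRNA genes elsewhere, so reads of theirs may stand among those aligned to several places. Mir199b had 1 and 2 counts, and its shared stretches were not examined singly, so the same may hold for it. The list summed to 176 and 199 CPM. Choroid plexus and ciliated epithelium genes summed to 1355 and 1098 CPM, with 1 of 5 members called higher in replicate 2 (39.4% of all genes tested) and 3 in replicate 1 (20.3% of all), led by Mir204 (608 ± 68.8 CPM), Mir34c (505 ± 134 CPM) and Mir449a (99.7 ± 21.3 CPM), while Mir449b was at 0.

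Skeletal and heart muscle genes, which mark other contractile cells, summed to 85.1 CPM in replicate 1 and 157 CPM in replicate 2, with 2 of 4 called higher in replicate 2, where 39.4% of all genes tested were. Mir206 of skeletal muscle had 76.6 and 141.7 CPM, Mir499 6.61 ± 1.98 CPM (SD, n = 2) and Mir208a 2.78 ± 0.651 CPM. Mir1a-1, Mir133a-1 and Mir133a-2 were at 0, but reads of such numbered copies may stand among those aligned to several places. Neuronal genes, which check the labelled tissue, summed to 32978 and 34808 CPM, led by Mir132 (17116 ± 3460 CPM), Mir128-1 (6294 ± 123 CPM) and Mir138-1 (5856 ± 1194 CPM), with 1 of 7 called higher in replicate 2 (39.4% of all genes tested) and 5 in replicate 1 (20.3% of all). Some of these calls were of small size, such as a log2 ratio of -0.04 for Mir128-1 and -0.09 for Mir128-2. The neuronal copies of miR-124 held few assigned counts, with none above 16 in a library. Reads aligned to several places were held apart from these counts, so they do not give the level of miR-124. The same may hold for miR-128 and miR-138, whose genes are numbered copies too, and so for the sums and calls of this list.

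**Figure D5:**
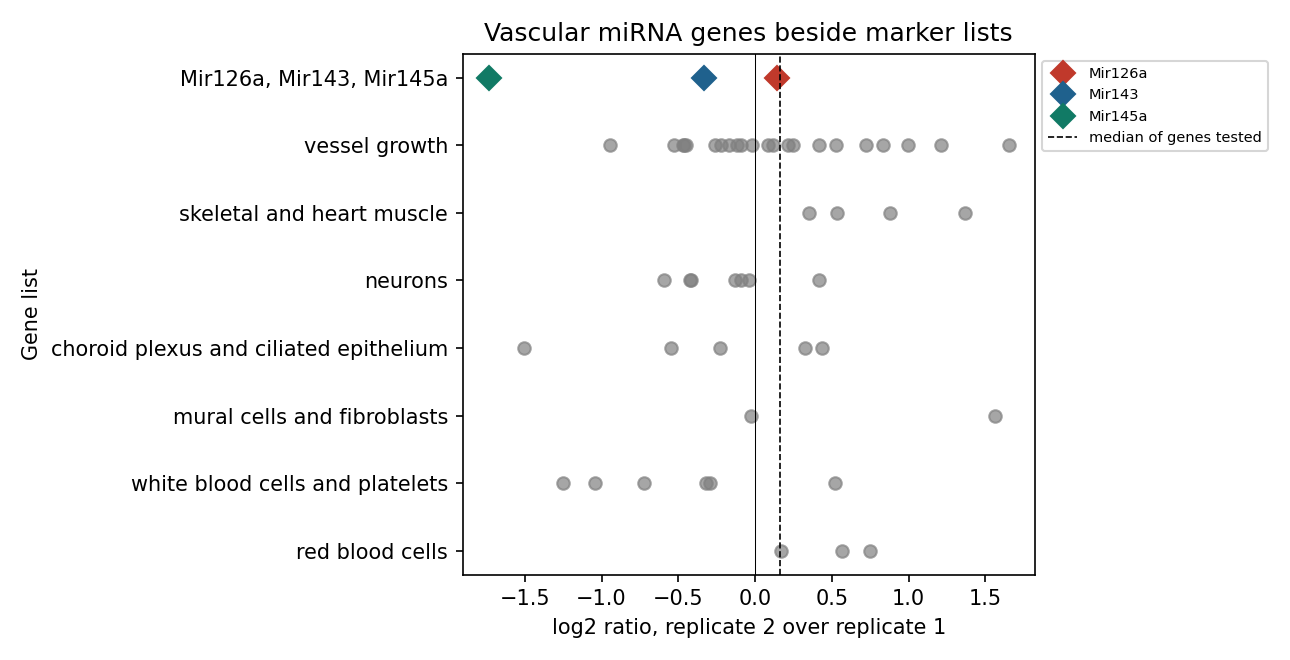
Log2 ratio of replicate 2 over replicate 1 (horizontal axis) for the tested members of each gene list (grey points) and for Mir126a, Mir143 and Mir145a (diamonds). The dashed line is the median of the genes tested, 0.16, and Mir145a at -1.74 lies left of every listed gene tested.

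The wider group of miRNA genes known from vessel growth, 24 genes chosen with earlier results of these data known, was mostly detected, with 10 or more counts in both libraries for 22 of them. Mir19a and Mir19b-1 had no count, but reads of Mir19b-1, a numbered copy, may stand among those aligned to several places. The highest were Mir23b, which takes part in endothelial growth, at 22183 and 16032 CPM, Mir221, which restrains endothelial migration, at 6275 and 6652 CPM, and Mir23a at 6700 and 3485 CPM. Mir126a lay between Mir221 and Mir23a by mean level. Between the libraries 10 of the 22 were called higher in replicate 2, 10 were called higher in replicate 1 and 2 did not pass, beside 39.4% and 20.3% of all genes tested. Their median log2 ratio was 0.03, against 0.16 over all genes tested. This split depended on the scaling, since under TMM 7 were called higher in replicate 2 and 12 in replicate 1, with a median of -0.13 against 0.01 over all genes tested. Of all 472 genes tested, 141 were called higher in replicate 2 and 137 in replicate 1 under TMM.

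Which genes had levels most like each member? By distance in log2(CPM + 1) over the 2 libraries, the nearest to Mir126a were Mir674 (5593 and 6281 CPM, distance 0.13), Mir379 of an imprinted cluster (0.18) and neuronal Mir128-1 (0.28). The nearest to Mir143 were Mir107 (3481 and 2929 CPM, distance 0.07), Mir423 (0.14) and Mir874 (0.21). Mir145a had no such close match. Its nearest genes were Mir467e (293 and 233 CPM, distance 0.99), Mir375 (1.04) and Mir20a (1.04). Likeness over 2 libraries is a description of level and ratio only.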

How the data were processed

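MicroRNA sequencing of total RNA from 2 hippocampus libraries of 1 group was used. The deposited values are unnormalised read counts of miRNA genes, 1 table per library, on mm10 with GENCODE M21 per the accompanying text files. Aligner and counter: not given in the sources used here. The tables hold 3 count columns, and the column on the strand of the gene was used. The 4 rows that name no gene were left out of totals. All 2202 identifiers matched GENCODE M21, and sequences came from RefSeq (GRCm38.p6).

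Counts were scaled to CPM, and log2 values carry a pseudocount of 1 CPM. Genes whose mean count reached 10 were tested with exact binomial tests, and pairs of neighbours up to 10 kb apart with Fisher's exact test (scipy 1.17.1), at an adjusted p of 0.05. These test the counts of 2 libraries, not conditions. With 1 group edgeR 4.0.16 (R 4.3.3) gave no test but the dispersion and TMM factors, and DESeq2 1.42.0 gave size factors. The tests were checked on simulated counts with known changes and counting error only. That check does not cover the further variation between these libraries.

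The members and lists were chosen with earlier results of these data known. Named are the members, the 3 nearest genes to each detected member, genes sharing a seed with or lying within 10 kb of a member, the 3 highest members of each list, the 2 pairs above and the 2 below Mir143 with Mir145a, and the 3 opposite-strand pairs with most counts. Mir486b, listed with the red blood cell genes, matched no name. Alternatives covered scaling, denominator, strand column, pseudocount, count minimum, gap and each library alone.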

Additional observations from a re-analysis of the deposited data

How the results depend on the processing

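Of 68 alternative values, 53 kept their direction and call, stayed near the main count, or moved by less than the spread between replicates. Part of this tally was fixed by its rules. Leaving out a library always moves a mean of 2 by less than their SD, and Mir126b was at 0 under every setting. A list median could only be labelled as moved or reversed. The tally is therefore a description and not a measure of robustness. The log2 ratio of Mir126a reversed to -0.029 with TMM scaling and -0.033 with DESeq2 size factors, which shift every log2 ratio by -0.17 and -0.18. With reads aligned to several places in the denominator, Mir126a stood at 2565 CPM, Mir143 at 1458 CPM and Mir145a at 144 CPM. In the column that ignores strand, Mir126a stood at 0.102 CPM, since its reads are counted as ambiguous there. Leaving out each library in turn gave 5300 to 5849 CPM for Mir126a, 2801 to 3534 CPM for Mir143, 143 to 480 CPM for Mir145a and 0 CPM for Mir126b, and 0% for the share of Mir126b in its pair. Under TMM 141 genes were called higher in replicate 2 and 137 in replicate 1, against 186 and 96 with the gene-assigned totals. Under TMM the median log2 ratio of the vessel growth list reversed to -0.13, and no other list median changed sign. The order per hairpin base and the lists under TMM were added after seeing the data. No paired analysis was possible because the labels give 1 group. For Mir143 and Mir145a the counting intervals were narrower than the gap between the libraries, whose sources, animal or preparation, cannot be told apart. For Mir126a this held with gene-assigned totals but not under TMM.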
